A study of Morus alba var. atropurpurea with 12 samples.

Results

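The step examined here is the doubling of the cadmium dose from 5 to 10 mM in mulberry roots, taken as the 3 libraries titled for 10 mM against the 3 titled for 5 mM. These are 6 of the 12 libraries of the series. All 12 come from fresh roots of the cultivar Yuesang10 (Morus alba var. atropurpurea), whose greenhouse seedlings were cut back and moved into aerated full-strength Hoagland solution. The control group received that solution alone, and the other groups received it with cadmium chloride at 5, 10 or 20 mM, each for 20 days and each with 3 libraries. The unit mM is the labels' own and could not be checked, and their treatment text mentions 6 groups, of which these 4 are labelled and analysed here. Whether these 3 stand for separate plants, pools or repeat preparations is not given in the labels, so p-values measure only how libraries of a group differ, and that spread may be technical. The labels give root as the tissue while the text on the series speaks of fruit, and no marker could be checked because the transcripts carry only XM identifiers without names or products.

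Cadmium is a toxic metal that roots take up through transporters for iron, zinc and manganese. Inside root cells it is bound by thiol peptides such as phytochelatins and by metallothioneins, and much of it is stored in vacuoles, which limits what reaches the shoot. It also disturbs redox balance, cell walls and the uptake of nutrients. None of these pathways can be assigned to an identifier here, so the transcripts are described by their level and by their behaviour over the doses.

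Levels are FPKM, a count of fragments divided by transcript length and library size, as the authors deposited them. A transcript that a library did not list was set to 0. Of 22727 transcripts listed in any library, 17782 reached at least 1 FPKM in at least 3 of the 12 libraries and were tested, and 4945 were left out. At the edge of that filter, 438 transcripts reached 1 FPKM in exactly 3 libraries and 584 in exactly 2. Changes are differences of group means of log2(FPKM + 1), which understate the change of low transcripts. A transcript is called when its adjusted p in limma, with Benjamini-Hochberg adjustment over all tested transcripts, is under 0.05.

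The 6 libraries listed between 19695 (10 mM replicate 1) and 20071 (5 mM replicate 3) transcripts. The number of reads is unknown, but what a single read is worth, estimated from the spacing of low values, differed by at most 1.07-fold between these 6 libraries. The sum of FPKM was 976884 in 10 mM replicate 2 and between 883726 and 891173 in the other 5 libraries. The 5 mM libraries resembled each other more than the 10 mM libraries did. Across tested transcripts, which are not independent replicates, the correlation between 2 libraries ran from 0.957 to 0.969 within 5 mM, from 0.924 to 0.956 within 10 mM, and from 0.926 to 0.960 between the doses. Among the 10 mM libraries, replicate 1 stood apart at -21.1 against 33.2 and 23.9 on the first principal component, which held 20.3% of the variance, and at -60.1 against -14.3 and -21.7 on the third, which held 12.3%. On the first component the control libraries lay from -51.2 to -21.6, the 5 mM libraries from -19.4 to -13.7 and the 20 mM libraries from 30.3 to 46.3. There 10 mM replicate 1 thus lay with the lower doses, and replicates 2 and 3 on the side of 20 mM. Replicate 2 stood apart on the second component, which held 16.2%, at 33.8 against -13.1 for replicate 1 and -6.66 for replicate 3. Replicate 2 also had the lowest correlations with the 5 mM libraries, from 0.926 to 0.944, against 0.938 to 0.947 for replicate 1 and 0.948 to 0.960 for replicate 3. The counts of calls and of list members below are therefore also given without replicate 1 and without replicate 2.

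In this step 1 transcript rose and 5 fell. These are 6 of 17782 tested transcripts, or 0.0337%, with 0.00562% called higher and 0.0281% called lower. The 5 that fell dropped to between 2.24-fold and 14.7-fold lower mean levels, and in all 5 every library at 20 mM also lay below every library at 5 mM. The transcript that rose stood 4.15-fold higher at 10 mM and had a lower mean at 20 mM. The rule for identifiers without names selects XM_010100318.1 and XM_010101109.1 among higher transcripts and XM_010089470.1 and XM_010099860.1 among lower ones, and the other 3 called transcripts are named because so few were called, after their values were seen.

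XM_010089470.1 had the largest called fall. The 5 mM libraries held 57.86, 29.66 and 37.93 FPKM, and those of the 10 mM group 2.60, 4.27 and 1.68 FPKM. The lowest 5 mM library was thus well above the highest 10 mM library. The log2 change was -3.48 ± 0.39 (SE, n = 3 per group, limma adjusted p = 0.0235). Its control libraries, at 62.18, 103.53 and 34.13 FPKM, overlapped the 5 mM libraries, and its 20 mM libraries, at 1.01, 0.58 and 0.67 FPKM, all lay below the 10 mM libraries.

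XM_010099860.1 was the most abundant of the called transcripts at 5 mM. Its 5 mM libraries held 459.83, 915.36 and 566.93 FPKM and its 10 mM libraries 84.85, 66.22 and 107.05 FPKM. The 2 sets lay far apart, although the 5 mM libraries themselves differed widely. The log2 change was -2.86 ± 0.36 (SE, limma adjusted p = 0.0279). At 20 mM it stood at 81.44, 36.64 and 85.64 FPKM, a range that overlaps that at 10 mM.

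XM_010088470.1 measured 113.75, 94.33 and 143.96 FPKM under 5 mM cadmium, against 29.09, 12.43 and 18.41 FPKM under 10 mM. Its log2 change was -2.55 ± 0.35 (SE, limma adjusted p = 0.0279), and with a pseudocount of 0.1 it was -2.61 and not called (adjusted p = 0.0914). Like the first transcript it stood lower again at 20 mM, with 1.37, 3.31 and 4.75 FPKM, so that the 3 doses did not overlap. The difference between 20 and 10 mM, -2.35 ± 0.35 log2 units, just missed the threshold (limma adjusted p = 0.0553), while the 5 mM libraries all lay above the control libraries, which held 67.30, 78.63 and 91.33 FPKM, without a call (adjusted p = 0.645).

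XM_010096824.1 was a low transcript in every group. It held 6.64, 6.21 and 5.44 FPKM at 5 mM and 0.95, 0.13 and 0.97 FPKM at 10 mM. All 3 libraries at 10 mM were below 1 FPKM, where the added pseudocount weighs most, and its log2 change was -2.12 ± 0.28 (SE, limma adjusted p = 0.0279). With a pseudocount of 0.1 the change was -3.28 and the adjusted p 0.126, and 4 of the 6 calls were kept in all. The 20 mM libraries, at 0.76, 0.12 and 0.75 FPKM, were close to those at 10 mM.

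XM_010104055.1 had the smallest change of the 6 and the tightest libraries. The 5 mM libraries stood at 184.17, 193.18 and 198.77 FPKM and the 10 mM libraries at 86.03, 82.82 and 88.87 FPKM. The log2 change was -1.15 ± 0.15 (SE, limma adjusted p = 0.0279). Controls at 192.74, 170.87 and 170.91 FPKM sat beside the 5 mM libraries, and 20 mM libraries at 81.01, 103.69 and 99.88 FPKM sat beside the 10 mM libraries. Its level thus differed between the 2 lower and the 2 higher groups, with no overlap between them.

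XM_010100318.1 was the only transcript called higher. Its 5 mM libraries held 106.91, 103.96 and 65.84 FPKM, and its 10 mM libraries held 430.41, 396.74 and 320.55 FPKM. The log2 change was 2.06 ± 0.27 (SE, limma adjusted p = 0.0279). Its 20 mM libraries, at 239.90, 141.90 and 263.41 FPKM, all lay below the 10 mM libraries and overlapped the control libraries, at 170.43, 139.07 and 114.76 FPKM. The difference of -0.87 ± 0.27 log2 units from 10 to 20 mM was not called (adjusted p = 0.367). After median scaling of the libraries this transcript was no longer called (adjusted p = 0.0637), which left 0 higher and 5 lower.

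**Figure D1:**
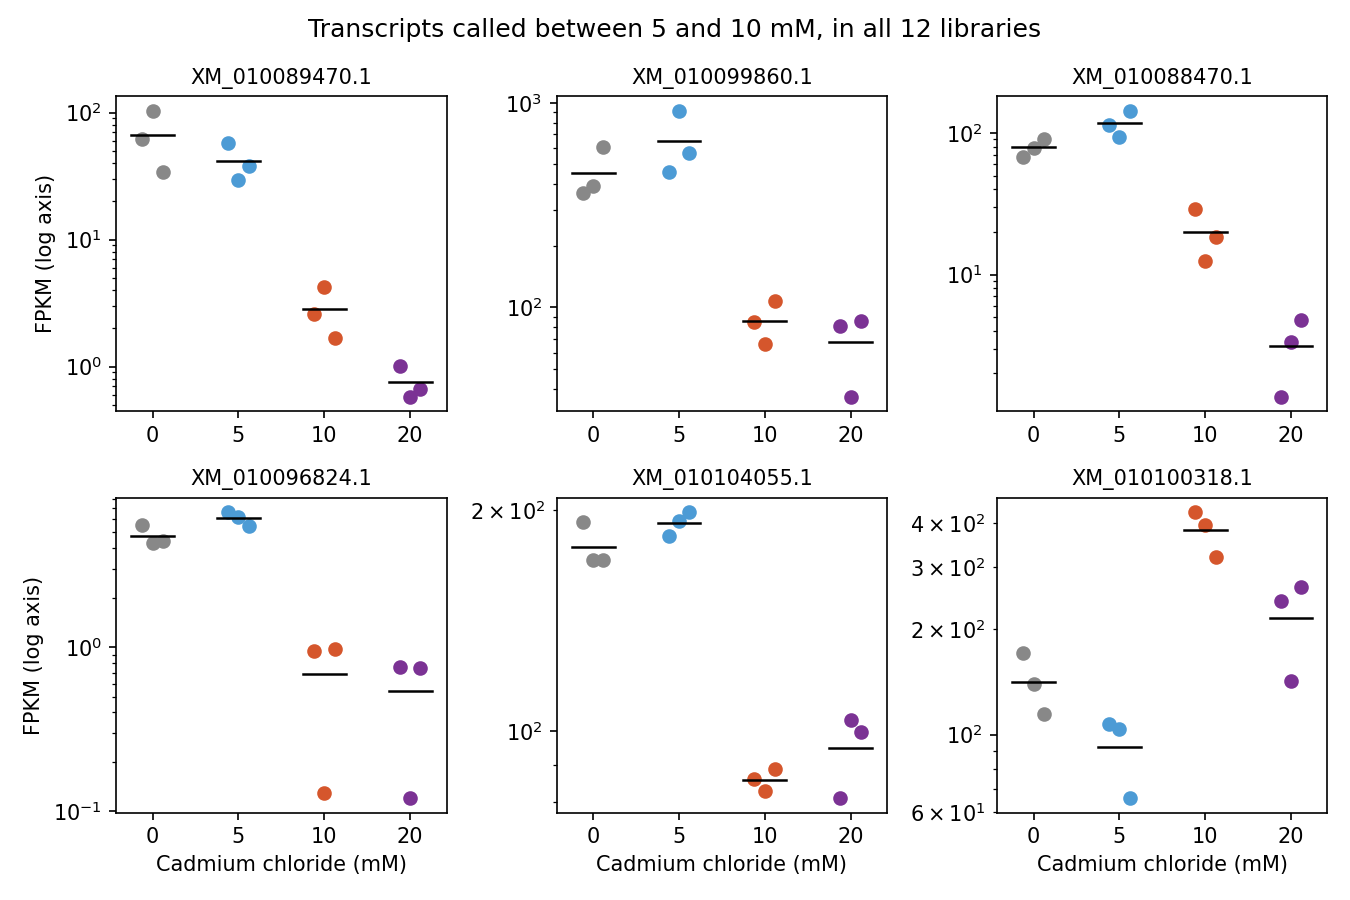
FPKM (log axis, scaled separately in each panel) of the 6 transcripts called between 5 and 10 mM, plotted against the cadmium dose in mM, with each point 1 library and each line a group mean. The 5 transcripts that fell stay low at 20 mM, whereas XM_010100318.1 is highest at 10 mM.

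XM_010101109.1 was the next higher transcript under the naming rule and did not pass the threshold. It measured 27.56, 20.58 and 18.24 FPKM under 5 mM cadmium, and 67.23, 77.47 and 59.06 FPKM under 10 mM. The groups did not overlap, and the log2 change was 1.59 ± 0.24 (SE, limma adjusted p = 0.0700). Among all tested transcripts the one nearest to the threshold from outside had a mean of 76.0 ± 15.7 FPKM at 5 mM and 11.3 ± 7.89 FPKM at 10 mM (SD, n = 3), with a log2 change of -2.87 and an adjusted p of 0.0553. The called transcripts were thus not set apart by size, since changes as large as theirs with wider spread stayed outside.

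Calls were often lost when a single library was left out. Leaving out a library also leaves the test with fewer libraries. Leaving out 5 mM replicate 1, 2 or 3 or 10 mM replicate 3 took the count from 6 to 0, and leaving out 10 mM replicate 2 or control replicate 2 took it to 1. Without control replicate 3 it was 10. Without 10 mM replicate 1 it was 5, of which only XM_010089470.1 and XM_010088470.1 were among the 6. Only leaving out a 5 or 10 mM library could move the log2 changes, and without overlap between the doses their direction was fixed. In those fits the log2 changes moved little. That of XM_010089470.1 ran from -3.73 to -3.22, that of XM_010099860.1 from -3.08 to -2.58, that of XM_010104055.1 from -1.18 to -1.13 and that of XM_010100318.1 from 1.84 to 2.18 when each library was left out in turn. In the 12 such fits the adjusted p of XM_010089470.1 ran from 0.00754 to 0.162, and it was over the threshold in 4 of them. The other 5 called transcripts lost their call in 6 to 8 of the 12. With only the 5 and 10 mM libraries fitted, 1 transcript was called, and it was none of the 6, whose adjusted p then ran from 0.0532 to 0.139.

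The next question was whether the 5 to 10 mM step differed from the steps before and after it. The step from control to 5 mM had 2 called transcripts (0.0112%) and that from 10 to 20 mM had 1 (0.00562%), and both share libraries with the step from 5 to 10 mM. The median absolute log2 change was 0.27 for the step from 5 to 10 mM, 0.26 for the step before and 0.25 for the step after. The difference between steps was tested directly in the same limma fit. For the step from 5 to 10 mM against the step before it, 0 transcripts were called with limma, against 1489 (8.37%) at an unadjusted p under 0.05. Against the step after it, 0 were called with limma, against 1926 (10.8%) at an unadjusted p under 0.05. These counts of 0 depended on the fit. With array weights 250 transcripts were called for the difference from the step after, 113 higher and 137 lower, and without 20 mM replicate 2 there was 1. For the difference from the step before, 1 was called without a filter, with a pseudocount of 0.1, or without 10 mM replicate 3.

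In the fit with equal weights none of the named transcripts passed either of these tests. For XM_010100318.1 the step from 5 to 10 mM exceeded the step before it by 2.69 ± 0.47 log2 units (SE, limma adjusted p = 0.344), and the step after it was lower by -2.93 ± 0.47 log2 units (adjusted p = 0.145). For XM_010099860.1 these differences were -3.35 ± 0.62 (adjusted p = 0.344) and 2.46 ± 0.62 log2 units (adjusted p = 0.266). For XM_010088470.1 the change from 10 to 20 mM differed from that between 5 and 10 mM by 0.20 ± 0.60 log2 units (adjusted p = 0.939). That interval is wide, so it does not show that the 2 steps were equal.

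Over all tested transcripts the change between 5 and 10 mM was small. The median log2 change was 0.04, 5% of transcripts lay below -0.73 and 5% above 0.79, and the median standard error was 0.29. At an unadjusted p under 0.05, which 2046 transcripts (11.5%) passed, 1253 (7.05%) had higher and 793 (4.46%) had lower levels at 10 mM. Scaling removed most of that lean to higher values. Median scaling gave 1049 higher and 1040 lower, and quantile normalization gave 1147 and 1055. Without 5 mM replicate 1 the numbers were 1018 and 977, and without 5 mM replicate 3 they were 1143 and 454. No overlap between the 3 and 3 libraries was seen for 3144 transcripts (17.7%), 1862 of them (10.5%) higher and 1282 (7.21%) lower at 10 mM. All 6 called transcripts were among them.

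The share of transcripts past an unadjusted p of 0.05 grew with level up to 1000 FPKM. Among 4807 transcripts with a mean from 1 to 5 FPKM over the 12 libraries, 5.49% were higher and 3.39% lower. Among 1802 with a mean from 100 to 1000 FPKM, 8.77% were higher and 7.16% lower, and 3 of the 6 calls lay there. The 88 transcripts of at least 1000 FPKM included no call (lowest limma adjusted p = 0.223, and at an unadjusted p under 0.05 there were 3 higher and 6 lower), and their log2 changes ran from -1.01 to 1.28. They made up 18.4% ± 0.629 of the FPKM sum at 5 mM and 17.8% ± 0.739 at 10 mM (SD, n = 3). The precision behind these shares also moved with level, the median standard error being 0.35 log2 units from 1 to 5 FPKM and 0.24 from 100 to 1000 FPKM.

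A change of at least 2 log2 units in the means was seen for 24 lower (0.135%) and 14 higher (0.0787%) transcripts. Of the 24 lower, 21 (0.118% of all tested) had no overlap between the doses and 4 were called. Of the 14 higher, 8 (0.045% of all tested) had no overlap and 1 was called. Among all tested transcripts, 7.21% were lower and 10.5% higher without overlap. The 24 and the 14 were chosen for a large change in the same libraries, which favours a lack of overlap. Their counts without overlap are therefore no finding. The transcript with the largest positive mean change (4.42 log2 units, adjusted p = 0.519) held 33.94, 1463.25 and 0 FPKM in the 10 mM libraries against 0, 4.25 and 0 FPKM in those of 5 mM, so that replicate 2 was far above replicate 1 and replicate 3 overlapped the 5 mM libraries. XM_010098200.1 is singled out, after a look at its values, because no control library lists it. The 5 mM libraries held 68.63, 77.72 and 43.61 FPKM of it and the 10 mM libraries 5.57, 2.43 and 36.44 FPKM. The doses did not overlap, replicate 3 was far above the other 10 mM libraries, and the change was not called (log2 change -2.73, adjusted p = 0.218).

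Transcripts listed in every library of 1 dose and in none of the other were all low. There were 42 listed in all 3 libraries at 10 mM and none at 5 mM, and 34 the other way. The highest values among them were 4.77 and 2.63 FPKM. Only 8 of the 42 and 3 of the 34 passed the filter on level, and none was called (lowest limma adjusted p 0.166 and 0.206). Most were also listed in some library outside the step, with 34 of the 42 in a control library and 36 in a 20 mM library, and 24 and 29 of the 34. Without counts, no limit on absence can be set for them.

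The control and 20 mM libraries take no part in the step, so the comparison between them was used to see where its transcripts stood over the whole range of doses. Both comparisons come from 1 limma fit and share its estimate of spread, but no library mean. Between 20 mM and control 226 transcripts (1.27%) were called, 103 higher (0.579%) and 123 lower (0.692%). This split depended on scaling. After median scaling of the libraries 79 were called higher and 162 lower, and 192 of these calls were among the 226. Control replicate 2 had a median log2 level of 3.30 over tested transcripts, against 3.45 to 3.70 in the other libraries. All 5 transcripts that fell between 5 and 10 mM were among the 123. The difference was -5.14 ± 0.39 log2 units (SE, limma adjusted p = 0.000152) for XM_010089470.1, and for XM_010088470.1 it was -4.35 ± 0.35 with the same adjusted p. XM_010099860.1 differed by -2.78 ± 0.36 (adjusted p = 0.00567), XM_010096824.1 by -1.92 ± 0.28 (adjusted p = 0.00981) and XM_010104055.1 by -0.91 ± 0.15 (adjusted p = 0.0140). For these last 3 the log2 change between 5 and 10 mM was at least as large as the whole difference between control and 20 mM. They were chosen for their change in the step, so the larger value there is no finding.

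XM_010100318.1 was not called between 20 mM and control, at 0.57 ± 0.27 log2 units (SE, limma adjusted p = 0.325), and its control and 20 mM libraries overlapped. XM_010101109.1 differed there by 0.70 ± 0.24 log2 units (adjusted p = 0.196), also with overlap. Both were chosen for their change in the step, so a smaller value in the other comparison is no finding.

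Larger changes, called or not, were followed in the same way. Of the 24 transcripts that were lower by at least 2 log2 units at 10 mM, 21 were also lower at 20 mM than in control, 7 of them called lower and 1 other, XM_010098200.1, called higher. Of the 14 higher by at least 2 log2 units, 7 were higher and 7 lower at 20 mM than in control, and 0 were called with limma in either direction. Their median log2 differences between 20 mM and control were -1.88 and -0.17. Of all tested transcripts, 44.1% were lower and 55.9% higher at 20 mM than in control, with 0.692% called lower and 0.579% called higher. Among the 793 transcripts with lower levels in the step past that unadjusted threshold, 65.1% were lower at 20 mM than in control, against 44.1% of all tested transcripts. Among the 1253 with higher levels, 64.6% were higher at 20 mM than in control, against 55.9% of all tested transcripts. The difference between these directions was not tested.

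Read the other way, transcripts called between 20 mM and control differed in the same direction between 5 and 10 mM for the most part. Of the 123 called lower at 20 mM, 106 (86.2%) had a negative change in the step, against 46.2% of all tested transcripts, with a median of -0.61 against 0.04. In this list 55 were lower in the step at an unadjusted p under 0.05 (44.7%, against 4.46% of all tested), 50 had no overlap in that direction (40.7%, against 7.21%) and 5 were called. Of the 103 called higher at 20 mM, 77 (74.8%) had a positive change in the step, against 53.8% of all tested transcripts, with a median of 0.31. In this list 26 were higher in the step at an unadjusted p under 0.05 (25.2%, against 7.05% of all tested), 29 had no overlap in that direction (28.2%, against 10.5%) and 0 were called with limma. Transcripts are not independent replicates, so these counts describe the lists and carry no p. The choice of the lists and the p in the step also share an estimate of spread, which favours transcripts with tight libraries. The shares past an unadjusted p and without overlap are therefore not a like comparison with all tested transcripts.

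The counts moved less than the medians when single libraries of the step were left out. With the same 2 lists and each of the 6 libraries left out in turn, between 97 and 108 of the 123 were lower and between 72 and 78 of the 103 higher at 10 mM. Without 10 mM replicate 1 they were 107 and 78, with medians of -0.78 and 0.43 log2 units. Without replicate 2 they were 98 and 74, with medians of -0.53 and 0.27, and without replicate 3 they were 97 and 72, with medians of -0.50 and 0.20. Where the lists came from the control and 20 mM libraries fitted alone, 50 of 57 called lower and 37 of 46 called higher had the same direction in the step, with medians of -0.77 and 0.49. In that smaller list of 57 were 4 of the 5 transcripts called lower in the step. Across all 17782 tested transcripts, which share library normalization but no library between the comparisons, the correlation of the 2 sets of log2 changes was 0.21 (Pearson) and 0.14 (Spearman).

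**Figure D2:**
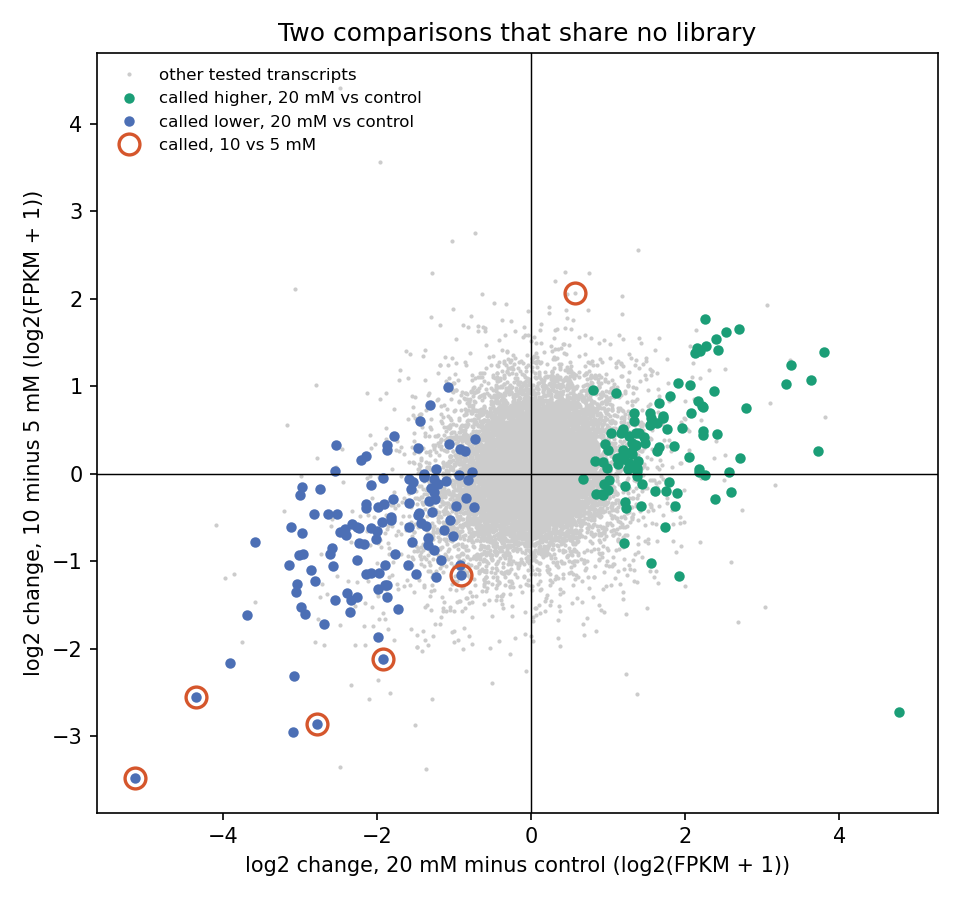
Log2 change from 5 to 10 mM against the log2 difference between 20 mM and control, for each tested transcript on the log2(FPKM + 1) scale, with colours for the 103 and 123 transcripts called higher and lower at 20 mM and rings for the 6 called in the step. The 5 ringed points at lower left are low in both comparisons, and the ringed point at the top has a difference of 0.57 at 20 mM against control.

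The 3 libraries at 10 mM lay at different distances from 5 mM over these lists. Relative to the mean at 5 mM, the median log2 difference over the 123 transcripts called lower at 20 mM was -0.33 in 10 mM replicate 1, -0.75 in replicate 2 and -0.77 in replicate 3. All 3 lay outside the range of the 5 mM libraries, from -0.06 to 0.05, and between them and the 20 mM libraries, from -1.48 to -1.25. The 5 mM libraries are measured from their own mean, which narrows their range by construction. The place of the 20 mM libraries follows from the choice of the lists. Only the 10 mM values are thus free of both limits. Over the 103 called higher the values were 0.11, 0.37 and 0.47 in the 10 mM libraries, from -0.05 to 0.06 at 5 mM and from 0.83 to 1.07 at 20 mM. Replicate 1 at 10 mM was thus the nearest to 5 mM in both lists. Over all tested transcripts the same medians ran from 0.02 to 0.06 in the 10 mM libraries and from -0.08 to 0.10 in the 5 mM libraries.

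**Figure D3:**
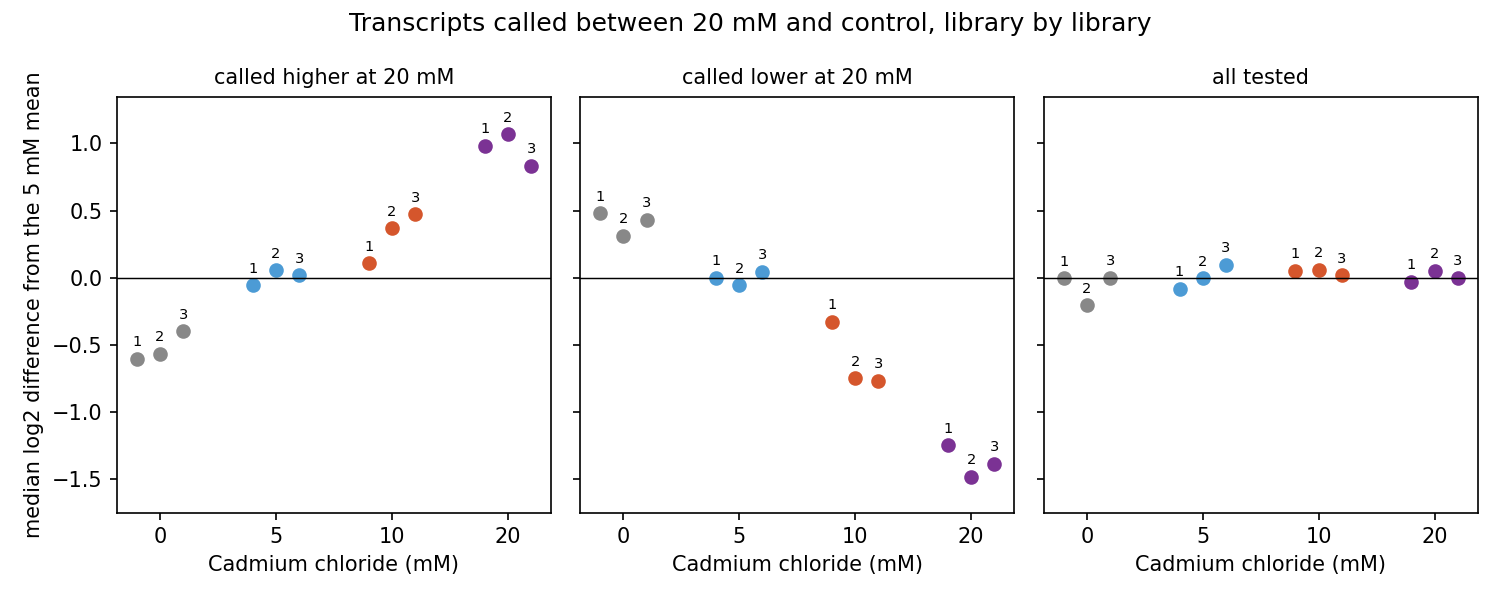
Median log2 difference from the mean at 5 mM over the transcripts called higher (103) or lower (123) at 20 mM against control and over all 17782 tested, for each library against the dose in mM, with replicate numbers beside the points. The 10 mM libraries lie between the 5 and 20 mM libraries in both lists, replicate 1 nearest to 5 mM. The lists were chosen on the difference between 20 mM and control, with a spread estimated from all 12 libraries. That choice sets the place of the 20 mM libraries, and the 5 mM libraries are measured from their own mean.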

How the data were processed

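Each library came with the authors' own table of FPKM per transcript, per the file headers, written to 2 decimals with a lowest listed value of 0.01. Which aligner, counter, build or filter produced it is not given in the sources used here. FPKM divides out transcript length and library size, so abundant transcripts can shift all others. Whether similar transcripts share reads could not be examined.

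Groups and replicate numbers came from the sample titles. Group means of log2(FPKM + 1) over all 12 libraries were fitted in R 4.3.3 by limma 3.58.1, using its mean-variance trend without a block, and two-sided p-values were Benjamini-Hochberg adjusted within each comparison. Contrasts were 10 minus 5 mM, the differences of that step from its neighbours, and 20 mM minus control. Named transcripts had the largest change among called ones, with a mean of at least 5 FPKM at 5 or 10 mM and no overlap, at most 2 per direction, filled up by the smallest p. The comparison, lists and rules were chosen with earlier results of these data known. Product lists and tissue markers could not be used, because the identifiers carry no names. The worth of 1 read came from 1090 sparse transcripts, where 83.2% of values were whole multiples to within 0.1. The unit was set from the lowest values of each transcript, so those values lie near 1 by construction. Among the 3482 values above 1.5 units the share was 75.0%. Alternatives were other pseudocounts, filters, scalings, robust moderation, weights per library, a replicate block, the compared groups alone, a minimum change, and each library left out.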

Additional observations from a re-analysis of the deposited data

How the results depend on the processing

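The direction of the 6 called transcripts, of XM_010101109.1 and of XM_010098200.1 was the same under all alternatives that could test them. In each of them the 5 and 10 mM libraries did not overlap, so only the scalings could have reversed a direction. The count of 6 calls between 10 and 5 mM was 2 with robust moderation in place of the variance trend, 1 with only the compared groups fitted, and 557 (293 higher, 264 lower) with array weights, which gave 5 mM replicate 2 and 10 mM replicate 3 weights of 2.98 and 2.43 and the other 4 libraries of the step at most 0.930. It ran from 0 to 10 when each library was left out. The count for the difference between this step and the one before, 0 by limma, was 1 without a filter and 1 with a pseudocount of 0.1, and ran from 0 to 1 without single libraries. That for the step after, 0 by limma, was 250 with array weights and ran from 0 to 1. The 226 calls between 20 mM and control were 443 with array weights and 103 with the compared groups alone, and ran from 69 to 317. The cause was not tested. Leaving out libraries with the lists of 103 and 123 transcripts held fixed, and taking those lists from the control and 20 mM libraries alone, were chosen after seeing the data. With the replicate block the step had 6 calls, 4 of them among the 6 reported, without XM_010088470.1 (adjusted p = 0.0506) and XM_010104055.1 (0.0592). Deviations of same-numbered 5 and 10 mM libraries had correlations of -0.09, -0.03 and 0.04, and those of differently numbered ones ran from -0.06 to 0.09. These values cannot decide whether the numbers pair the libraries, since the labels do not say what the numbers stand for. With 3 libraries per group and a median standard error of 0.29 log2 units, the smallest called change was 1.15 log2 units. It belonged to XM_010104055.1, whose standard error of 0.15 was well under that median, so it is no detection limit for a typical transcript.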

Other observations

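Of 10 tested identifiers next in number to a called one, 9 had a change of the same sign from 5 to 10 mM. Over all 12460 pairs of tested identifiers 1 apart, 54.4% had the same sign. With limma 0 of the 10 were called, against 5 at an unadjusted p under 0.05, which 11.5% of all tested transcripts passed. For 7 of the 10 the change was under 1 log2 unit in size, from -0.82 to 0.32, and the other 3 lay in 2 places. The identifier just after XM_010104055.1 stood at 14.3 ± 1.95 FPKM at 5 mM and 3.44 ± 0.789 FPKM at 10 mM (SD, n = 3), a log2 change of -1.79 (limma adjusted p = 0.0912). The identifier just before XM_010100318.1 stood at 195 ± 48.6 and 574 ± 97.7 FPKM, a log2 change of 1.57 (adjusted p = 0.116), and the one just after at 95.3 ± 62.9 and 357 ± 117 FPKM, a log2 change of 2.03 (adjusted p = 0.283). These 3 did not pass the threshold and were chosen after their values were seen. Over 12460 pairs of tested identifiers 1 apart the correlation of the log2 changes from 5 to 10 mM was 0.15, and over 5321 list neighbours further apart it was 0.07. Positions and sequences of these transcripts were not used here, so shared reads between neighbours were not tested.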
